A study of Mus musculus with 13 samples.

Results

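RNA levels of 10 genes of the interleukin-7 (IL-7) receptor, JAK kinase and STAT5 axis were examined in 13 mouse libraries: 5 thymic lymphomas from Atm-/- mice, 5 from Rag2c/c p53-/- mice and 3 wild-type (WT) thymuses. The genes were chosen by name as 4 receptor chains (Il7r, Il2rg, Il2rb and Il4ra), 2 kinases (Jak1 and Jak3), 2 transcription factors (Stat5a and Stat5b) and 2 feedback inhibitors (Socs1 and Cish). They are 10 of the 43629 genes of the deposited table, and all 10 passed the filter on low values. The Atm-/- mice, which lack the ATM kinase that responds to DNA breaks, were of strain 129S6/SvEv. The Rag2c/c p53-/- mice lack p53, and their RAG2, a subunit of the recombinase that rearranges antigen receptor genes, is truncated at its C terminus. Their background was mixed (C57BL/6 and 129S6/SvEv). The WT thymuses came from C57BL/6 mice and were re-used from another series. Their source label reads thymic lymphoma while their tissue label reads thymus, and they are treated here as thymus. Each lymphoma came from a different mouse, RNA was taken from suspensions of single cells, and ages were not given in the sources used here. Strain and series go with the groups, so neither can be told apart from genotype or from the difference between tumor and thymus.

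IL-7 binds a receptor made of the IL-7 receptor alpha chain (Il7r) and the common gamma chain (Il2rg), which bring together the kinases JAK1 and JAK3. The kinases phosphorylate STAT5A and STAT5B, which enter the nucleus and bind DNA at a short palindrome. Early thymocytes need this signal to survive and divide, most double-positive thymocytes carry little of the alpha chain, and mature thymocytes carry it again. The beta chain Il2rb serves the receptors of IL-2 and IL-15, and Il4ra is the chain that binds IL-4 and, with a partner, IL-13. Cish and Socs1 are induced by cytokine signals and dampen them. In bulk RNA, fewer cells of a type and less RNA per cell cannot be told apart.

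The STAT5 palindrome, searched as TTCNNNGAA on both strands (the letters read the same on either strand, so a match counts once), was present in the promoters of 2 of the 9 members that matched a RefSeq promoter by symbol. These windows run from 250 bases before to 50 bases after a start annotated by RefSeq on GRCm38.p6, and Il2rb had no entry. The windows of Cish (chr9:107296409-107296708, plus strand) and Il7r (chr15:9529827-9530126, minus strand) are shown because they are the members with a match, and because Cish had the lowest mean level of the 10 genes in each group and Il7r was the member that separated the lymphoma groups. Matches are in capitals and the sequences read 5′ to 3′ along the gene.
Cish: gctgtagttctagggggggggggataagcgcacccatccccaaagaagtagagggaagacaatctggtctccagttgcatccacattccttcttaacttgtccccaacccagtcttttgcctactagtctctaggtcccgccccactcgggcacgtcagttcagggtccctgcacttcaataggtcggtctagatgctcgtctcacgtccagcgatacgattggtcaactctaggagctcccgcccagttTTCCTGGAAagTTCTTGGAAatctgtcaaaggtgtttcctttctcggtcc
Il7r: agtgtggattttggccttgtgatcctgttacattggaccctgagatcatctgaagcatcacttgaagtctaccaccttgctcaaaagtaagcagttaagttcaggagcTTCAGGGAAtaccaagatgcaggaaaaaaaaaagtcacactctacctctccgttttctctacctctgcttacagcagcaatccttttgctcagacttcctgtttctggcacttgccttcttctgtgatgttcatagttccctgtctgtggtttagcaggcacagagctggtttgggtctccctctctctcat
In Cish, TTCCTGGAA began at the start base itself and TTCTTGGAA began 11 bases further, with no overlap. In Il7r, TTCAGGGAA began at position -142 from the start. Of 32851 promoters in the RefSeq table, 2726 (8.3%) held at least 1 match and 150 (0.457%) held 2 or more, as Cish did. The other members' windows held none, which says only that these letters are not in 300 bases around the start. No measurement of STAT5 binding was analysed here.

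The deposited values are normalized counts that add up to between 19788898 and 21591289 per library. From the steps between low values, the depth was estimated at 6.68 to 39.6 M reads in WT thymus, 9.23 to 23.6 M reads in the Atm-/- group and 6.37 to 24.8 M reads in the Rag2c/c p53-/- group. Replicate 2 was the shallowest library of each of the 3 groups. Across 15872 genes, deviations from the group mean correlated at 0.163 to 0.274 between these 3 libraries, against -0.188 to 0.183 for the other 52 pairs of libraries of different groups. Of the genes altered in these mice, Atm was listed at 1559 to 2274 in WT thymus, 208 to 732 in Atm-/- lymphomas and 439 to 1315 in Rag2c/c p53-/- lymphomas. Trp53 was listed at 4387 to 6341, 6853 to 11318 and 2018 to 5461, and Rag2 at 4199 to 5409, 46 to 1025 and 260 to 790, in the same order. These gene totals do not show where on the gene the reads lie, so they check the alleles only in part. All 6 T lineage markers (Cd3e, Cd3g, Cd3d, Lck, Cd2 and Thy1) had a mean of at least 10 in each group, and their sum was 61514 to 99921 in WT thymus, 56618 to 104050 in Atm-/- and 52306 to 105966 in Rag2c/c p53-/- lymphomas.

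Il7r was the member that differed between the lymphoma groups, 5.73-fold higher in Atm-/- than in Rag2c/c p53-/- lymphomas. Il4ra, Cish and Il2rb fell in both lymphoma groups against WT thymus. The fitted log2 fold changes of both kinases, both STAT5 genes, Il2rg and Socs1 against WT thymus were under 1 in size in each lymphoma group. This does not show that they were unchanged. Stat5b was lower with an adjusted p under 0.05 in both groups, and Jak1 in Atm-/- lymphomas. The 95% intervals of Jak1, Stat5b, Socs1 and Il2rg reached past -1 in at least 1 lymphoma group. A gene is called changed where limma gave a Benjamini-Hochberg adjusted p under 0.05 over 15872 genes, the log2 fold change was 1 or more in size, and either group's mean reached 10. All values below are normalized counts unless a log2 scale is named, and n is 3, 5 and 5 for WT, Atm-/- and Rag2c/c p53-/-. The plot of the members by library shows these values.

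Counted together, the members were called about as often as genes at large. Against WT thymus, 3 of the 10 were changed in Atm-/- lymphomas, where 29.5% of the 15872 genes tested were changed, and 3 of the 10 in Rag2c/c p53-/- lymphomas, where 23.6% were. All of these calls were decreases, and 17% and 13.9% of tested genes fell. By the adjusted p alone, 5 members passed in Atm-/- and 4 in the Rag2c/c p53-/- lymphomas, against 44.3% and 37.1% of genes. The lymphomas did not overlap the thymuses for 6 members (background 51.3%) and 5 members (background 43.9%). Between the lymphoma groups 1 member was changed, higher in Atm-/-, where 7.84% of genes were changed and 3.51% were higher. The same member passed the adjusted p (11.4% of genes) and did not overlap (8.33% of genes). The median log2 fold change of the members was -0.90 in Atm-/- and -0.74 in the Rag2c/c p53-/- lymphomas against WT thymus, beside -0.02 and -0.02 for all tested genes. It was -0.03 between the lymphoma groups, beside 0.02 for all tested genes. Both comparisons with WT thymus use the same 3 thymuses.

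**Figure D1:**
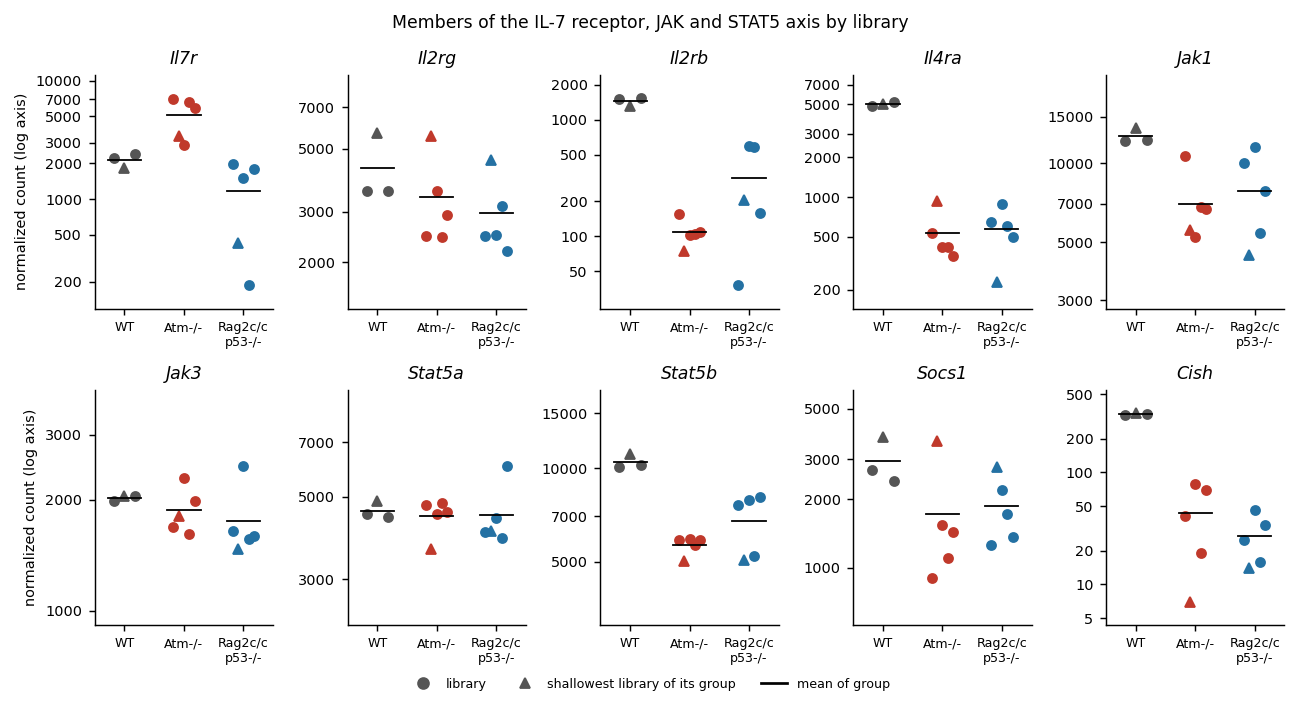
Normalized counts on a log axis of the 10 members in 3 WT thymuses (grey), 5 Atm-/- lymphomas (red) and 5 Rag2c/c p53-/- lymphomas (blue), with triangles for the shallowest library of each group and lines for group means. Il2rb, Il4ra and Cish lie below every WT thymus in all 10 lymphomas, and Il7r does not overlap between the lymphoma groups.

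Il7r (ENSMUSG00000003882, chromosome 15 from 9506161 to 9529876, minus strand, GRCm38) was listed at 2206, 1819 and 2398 in WT thymus replicates 1 to 3. The Atm-/- lymphomas held 7078, 3387, 2860, 6581 and 5901, a mean of 5161 ± 1916 (SD, n = 5). The Rag2c/c p53-/- lymphomas held 1967, 426, 1512, 188 and 1790, a mean of 1177 ± 815 (SD, n = 5). Every Atm-/- lymphoma was above every WT thymus and every Rag2c/c p53-/- lymphoma, while Rag2c/c p53-/- replicates 1 and 5 overlapped the WT range or lay just under it and replicates 2 and 4 were far below. The difference between the lymphoma groups was 2.52 on the log2 scale (SE 0.56, 95% confidence interval 1.31 to 3.73, limma adjusted p = 0.011). Over 18 alternative settings it stayed between 1.98, without Rag2c/c p53-/- replicate 4, and 2.82, and the adjusted p stayed between 0.0090 and 0.046. Against WT thymus, Il7r did not pass in either group: the log2 fold change was 1.19 (SE 0.65, adjusted p = 0.15) for Atm-/- and -1.33 (SE 0.65, adjusted p = 0.12) for Rag2c/c p53-/- lymphomas. With the Rag2c/c p53-/- lymphomas, whose highest Il7r value was 10.5 times the lowest, against 2.48 times in Atm-/- lymphomas, left out of the limma fit, the Atm-/- difference of 1.19 had an adjusted p of 0.012.

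Il7r and Il2rb both lie on chromosome 15, whose other 582 tested genes were shifted as a whole in the lymphomas. The median log2 difference of these genes from WT thymus was 0.098 to 0.569 in Atm-/- lymphomas and 0.264 to 0.566 in Rag2c/c p53-/- lymphomas, against -0.036 to 0.014 in the WT thymuses. Il7r lay above this median by 1.19, 0.57, 0.02, 1.06 and 1.01 in Atm-/- replicates 1 to 5. In Rag2c/c p53-/- replicates 1 to 5 it lay at -0.38, -2.88, -0.94, -3.84 and -0.75 against it. Thus Atm-/- replicate 3 was about as far above WT thymus in Il7r as its chromosome was, and all 5 Rag2c/c p53-/- lymphomas were below their chromosome. The part of this shift in the Il7r values was not tested.

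**Figure D2:**
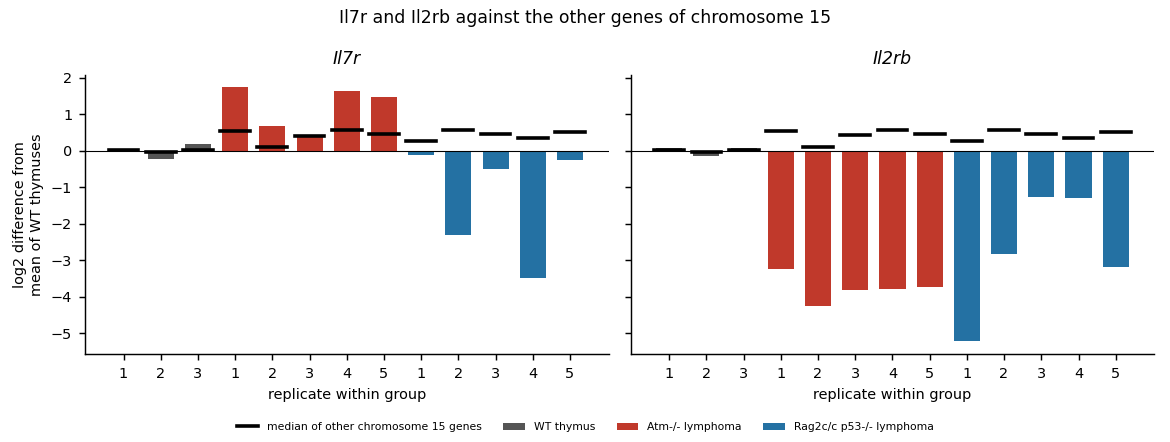
Log2 difference from the mean of the WT thymuses of Il7r (left) and Il2rb (right) in each library, as bars, with the median of the other 582 tested chromosome 15 genes as a black line. Il7r bars point up in the 5 Atm-/- lymphomas and down in the 5 Rag2c/c p53-/- lymphomas, and Il2rb bars point down in all 10, while the black lines lie between 0.098 and 0.569 in all 10 lymphomas.

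Il2rg (ENSMUSG00000031304, X chromosome from 101264378 to 101268255, minus strand), the gamma chain, was listed at 3545, 5691 and 3552 in WT thymus, at 2461, 5549, 3562, 2459 and 2930 in Atm-/- and at 2477, 4569, 2492, 3143 and 2193 in Rag2c/c p53-/- lymphomas. The groups overlapped, and the highest value of each was in its shallowest library, replicate 2. The log2 fold change against WT thymus was -0.36 (SE 0.29, 95% interval -0.995 to 0.27) for Atm-/- and -0.53 (SE 0.29, 95% interval -1.17 to 0.10) for Rag2c/c p53-/- lymphomas. Neither passed (limma adjusted p = 0.33 and 0.17). The other tested genes of the X chromosome had median log2 differences of -0.313 to -0.122 and -0.667 to -0.280 in the same order, whose part in the Il2rg values was not tested.

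Il2rb (ENSMUSG00000068227, chromosome 15 from 78480553 to 78495066, minus strand) was listed at 1516, 1309 and 1529 in WT thymus, at 154, 75, 102, 105 and 108 in Atm-/- and at 38, 203, 596, 588 and 159 in Rag2c/c p53-/- lymphomas. Every lymphoma was below every thymus, and the Rag2c/c p53-/- lymphomas spread from well under to well over the Atm-/- range. Il2rb fell 13.5-fold in Atm-/- (log2 fold change -3.76, SE 0.68, limma adjusted p = 0.00073) and 6.77-fold in Rag2c/c p53-/- lymphomas (-2.76, SE 0.68, adjusted p = 0.0066). Between the lymphoma groups the difference was -1.0 (95% interval -2.27 to 0.27, adjusted p = 0.31). Without Rag2c/c p53-/- replicate 1, the library at 38, it was -1.61 and passed (adjusted p = 0.023).

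Il2rb also marks natural killer and innate-like lymphocytes, whose other markers did not move as a block. All 7 (Ncr1, Klrb1c, Klrd1, Eomes, Tbx21, Gzma and Nkg7) had a mean of at least 10 in WT thymus, against 3 of 7 in Atm-/- and 4 of 7 in Rag2c/c p53-/- lymphomas. Nkg7 was listed at 643 to 703 in WT thymus, 2 to 11 in Atm-/- and 9 to 24 in Rag2c/c p53-/- lymphomas, and Ncr1 had a mean of 3 or less in both lymphoma groups. The summed level ran the other way, 2246 to 2372 in WT thymus, 3930 to 7615 in Atm-/- and 2812 to 10433 in Rag2c/c p53-/- lymphomas, and most of it was the granzyme gene Gzma at 2067 to 9703 in the lymphomas. The part of such cells in the Il2rb values was not tested. Il2ra, the alpha chain that joins Il2rb and Il2rg in the IL-2 receptor, ranged from 50 to 17248 in Atm-/- and from 19 to 1023 in Rag2c/c p53-/- lymphomas against 3375 to 3662 in WT thymus. With this spread it did not pass in any of the 3 comparisons (limma adjusted p = 0.52, 0.082 and 0.30).

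Il4ra (ENSMUSG00000030748, chromosome 7 from 125552282 to 125579472, plus strand) was listed at 4817, 4986 and 5233 in WT thymus, at 532, 936, 422, 423 and 359 in Atm-/- and at 647, 230, 889, 605 and 497 in Rag2c/c p53-/- lymphomas. All 10 lymphomas were far below the thymuses, and the lymphoma groups overlapped. It fell 9.96-fold in Atm-/- (log2 fold change -3.32, SE 0.38, limma adjusted p = 2.8e-05) and 9.53-fold in Rag2c/c p53-/- lymphomas (-3.25, SE 0.38, adjusted p = 5.2e-05). The lymphoma groups differed by -0.06 (95% interval -0.76 to 0.64). Ccr7, a chemokine receptor of mature thymocytes, was at 1897 to 2281 in WT thymus, 87 to 267 in Atm-/- and 53 to 189 in Rag2c/c p53-/- lymphomas, and the B cell receptor gene Cd79a at 279 to 308, 19 to 91 and 19 to 132. Both were thus also lower in every lymphoma, as Il4ra, Il2rb and Cish were, and their part in these values was not tested.

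Jak1 (ENSMUSG00000028530, chromosome 4 from 101152367 to 101265282, minus strand), the kinase on the cytokine-specific chains, was listed at 12180, 13602 and 12310 in WT thymus. It was at 10620, 5574, 5224, 6802 and 6721 in Atm-/- and at 10036, 4461, 11564, 5416 and 7857 in Rag2c/c p53-/- lymphomas. All lymphomas were below all thymuses. In Atm-/- lymphomas the difference passed the adjusted p but not the fold threshold (log2 fold change -0.91, SE 0.30, limma adjusted p = 0.024), and in Rag2c/c p53-/- lymphomas it passed neither (-0.78, SE 0.30, adjusted p = 0.053). Without Atm-/- replicate 1, its highest library, the Atm-/- value was -1.07 and passed both (adjusted p = 0.0095). Other settings took the Atm-/- difference past the adjusted p threshold. The limma adjusted p was 0.061, 0.076 and 0.064 without WT thymus replicates 1, 2 and 3 in turn. It was 0.052 without Atm-/- replicate 3 and 0.066 without the shallowest library of each group, so the Atm-/- difference did not pass in these settings. The other genes of chromosome 4 had medians of 0.020 to 0.137 in Atm-/- and 0.308 to 0.525 in Rag2c/c p53-/- lymphomas, in the opposite direction. The end of Jak1 overlaps Raver2, on the opposite strand, by a few bases.

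Jak3 (ENSMUSG00000031805, chromosome 8 from 71676296 to 71690575, plus strand), the kinase on the gamma chain, was nearly flat. The WT thymuses held 1987, 2047 and 2046, the Atm-/- lymphomas 1688, 1806, 2298, 1621 and 1991, and the Rag2c/c p53-/- lymphomas 1645, 1469, 2477, 1566 and 1600. The groups overlapped, and Rag2c/c p53-/- replicate 3 stood above the rest of its group. The log2 fold change against WT thymus was -0.12 (95% interval -0.49 to 0.26) and -0.24 (95% interval -0.61 to 0.14). Insl3, which shares sequence on the same strand with Jak3, was at 11 to 49.

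Stat5a (ENSMUSG00000004043, chromosome 11 from 100859351 to 100885169, plus strand) was the flattest member. It was listed at 4496, 4863 and 4405 in WT thymus, at 4755, 3626, 4491, 4800 and 4548 in Atm-/- and at 4022, 4053, 4383, 3870 and 6042 in Rag2c/c p53-/- lymphomas. The groups overlapped throughout, and the log2 differences of -0.05 (95% interval -0.39 to 0.29), -0.06 (95% interval -0.39 to 0.28) and 0.00 (95% interval -0.29 to 0.30) were too small for their sign to hold: it flipped under alternatives in each comparison. Its 3′ end overlaps that of Stat3 on the opposite strand, which was at 2946 to 4821.

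Stat5b (ENSMUSG00000020919, chromosome 11 from 100780731 to 100850724, minus strand), its neighbour and close paralog, was lower in the lymphomas. It was listed at 10112, 11097 and 10241 in WT thymus, at 5879, 5033, 5937, 5676 and 5880 in Atm-/- and at 7631, 5052, 7911, 5226 and 8048 in Rag2c/c p53-/- lymphomas. No lymphoma reached a thymus. Reads that fit both STAT5 genes equally are not uniquely mapped, so neither level should hold them. The log2 fold change was -0.89 (SE 0.17, limma adjusted p = 0.0011) and -0.66 (SE 0.17, adjusted p = 0.0086), past the adjusted p and short of the fold threshold in both. The other genes of chromosome 11 had medians of 0.012 to 0.194 and 0.026 to 0.298. In Rag2c/c p53-/- lymphomas, replicates 2 and 4, the shallowest 2 of that group, held the lowest Il7r, Jak1 and Stat5b values.

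Socs1 (ENSMUSG00000038037, chromosome 16 from 10783808 to 10785536, minus strand), which inhibits JAK kinases, was listed at 2684, 3768 and 2398 in WT thymus, at 902, 3608, 1548, 1107 and 1442 in Atm-/- and at 1263, 2783, 2190, 1718 and 1374 in Rag2c/c p53-/- lymphomas. The groups overlapped through replicate 2, the shallowest library, which was highest in each. The log2 fold change was -0.93 (SE 0.38, limma adjusted p = 0.061) in Atm-/- and -0.70 (SE 0.38, adjusted p = 0.17) in Rag2c/c p53-/- lymphomas. Without Atm-/- replicate 2 the Atm-/- value was -1.24 and passed (adjusted p = 0.0037), and without the shallowest library of all 3 groups it was -1.05 and passed (adjusted p = 0.0094). Socs1 and Il2rg were thus both highest in the shallowest library of every group, a pattern that 1403 genes (8.84% of those tested) shared. The part of depth in their values was not tested.

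**Figure D3:**
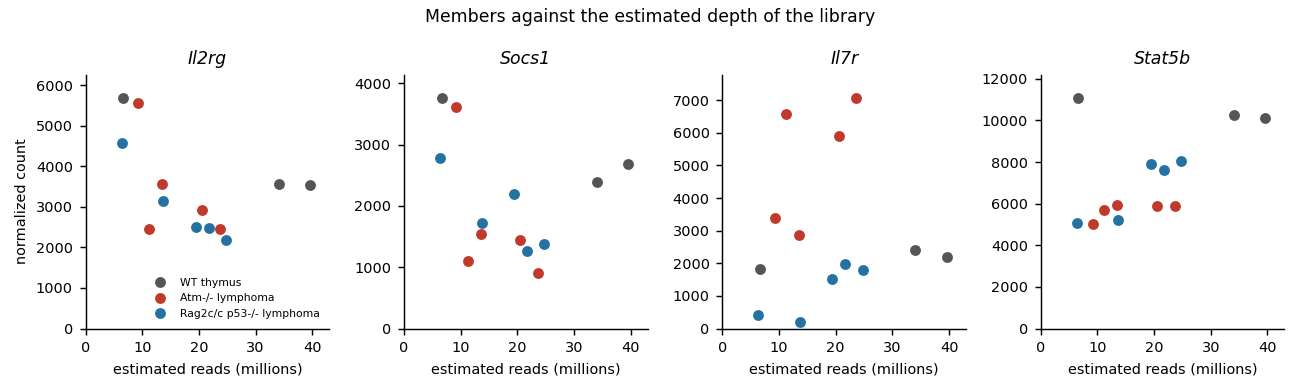
Normalized counts of Il2rg, Socs1, Il7r and Stat5b against the estimated number of reads (M reads), 1 point per library (grey WT thymus, red Atm-/-, blue Rag2c/c p53-/- lymphomas). The shallowest library of each group holds its highest Il2rg and Socs1 value, while the Il7r points of the lymphoma groups stay apart.

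Cish (ENSMUSG00000032578, chromosome 9 from 107296026 to 107302784, plus strand), the STAT5-induced inhibitor whose promoter held both palindromes, was listed at 325, 338 and 332 in WT thymus. It was at 41, 7, 78, 19 and 70 in Atm-/- and at 25, 14, 46, 16 and 34 in Rag2c/c p53-/- lymphomas. The thymuses lay close together, and all 10 lymphomas were far below them. It fell 10.2-fold in Atm-/- (log2 fold change -3.34, SE 0.66, limma adjusted p = 0.0014) and 13-fold in Rag2c/c p53-/- lymphomas (-3.70, SE 0.66, adjusted p = 0.00096). The lowest values rest on few reads, about 3 in Atm-/- replicate 2 and about 4 in Rag2c/c p53-/- replicate 2, against about 105 in the shallowest thymus. Without the shallowest library of each group the log2 values were -2.82 (adjusted p = 0.0040) and -3.50 and still passed. Between the lymphoma groups the difference was 0.36 (95% interval -0.88 to 1.59).

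**Figure D4:**
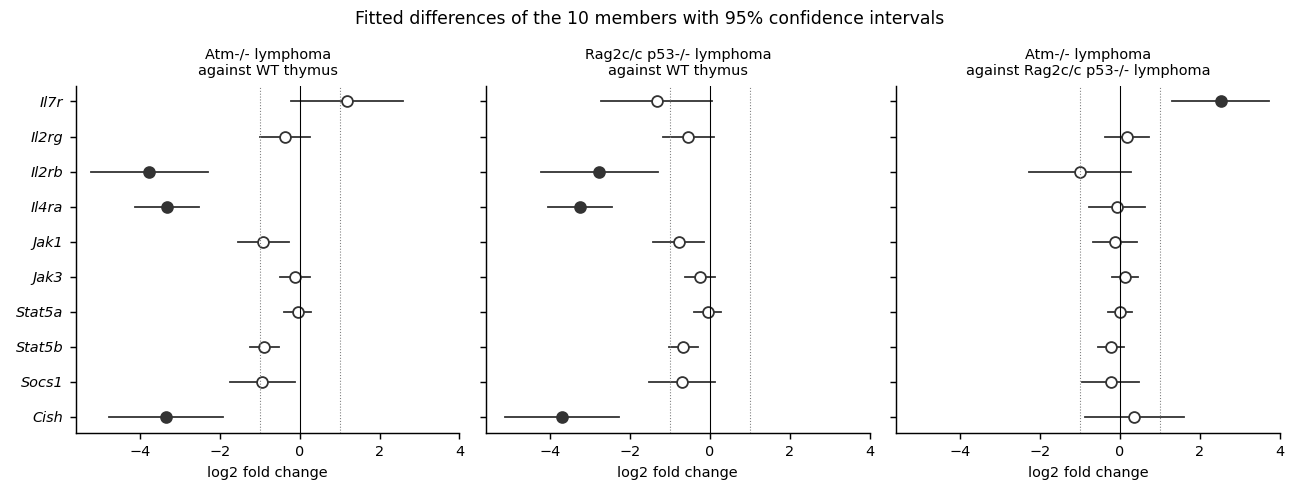
Log2 fold changes of the 10 members from limma in the 3 comparisons, with 95% confidence intervals as lines, filled points for changed genes and dotted lines at -1 and 1. Il2rb, Il4ra and Cish are filled in both comparisons with WT thymus, and Il7r alone is filled between the lymphoma groups.

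Per kilobase of exon, the order of the members differed between groups mainly through Il7r and Il4ra. In WT thymus the highest levels were those of Stat5b, 1893 ± 96.7, Il2rg, 1786 ± 518, and Jak1, 1757 ± 109 normalized counts per kilobase (SD, n = 3), which did not differ beyond their spread. Socs1, Il4ra, Stat5a, Il7r, Jak3 and Il2rb followed from 1014 down to 338.5, and Cish was lowest at 51.7. The exon lengths are those of GENCODE vM21, which gives Il7r, Il2rb, Il4ra and Socs1 wider bounds than the deposited table. Their levels per kilobase may thus be too low. For Socs1 the length used, 2908 bases, exceeds the whole span of the deposited gene, so its place in the order of each group is not settled. In Atm-/- lymphomas Il7r came next to the top, at 1107 ± 411, between Il2rg at 1421 ± 539 and Stat5b at 1026 ± 67.8 (SD, n = 5), and these 3 did not differ beyond their spread. In Rag2c/c p53-/- lymphomas Il7r lay low in the order at 252.3 ± 175, next to Jak3 at 327.2 ± 76.8 (SD, n = 5) and within its spread. Il4ra, above Stat5a in WT thymus at 835.1 ± 34.9, lay below Jak3 in both lymphoma groups, at 89.0 ± 38.8 and 95.6 ± 39.9 per kilobase. Cish was lowest in all 3 groups, at 6.70 ± 4.82 and 4.21 ± 2.07 in Atm-/- and Rag2c/c p53-/- lymphomas.

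Receptor and feedback genes were next set against each other over the 10 lymphomas on the log2 scale, with each lymphoma group centred on its own mean. Il7r and Cish had a Pearson r of 0.358 (permutation p = 0.193, adjusted over the 4 relations 0.281) and a Spearman rho of 0.261 (permutation p = 0.398, adjusted 0.531). Without the 2 lymphomas farthest from the median Il7r value, r was 0.0352. Il7r and Socs1 had r = -0.445 (permutation p = 0.129, adjusted 0.281) and rho = -0.576 (permutation p = 0.0752, adjusted 0.301), and r = -0.726 without those 2 (permutation p = 0.0694). Il2rb and Cish had r = 0.137 (permutation p = 0.62, adjusted 0.62) and rho = 0.345 (permutation p = 0.298, adjusted 0.531), and r = 0.0994 without the 2 lymphomas farthest in centred Il2rb (0.12 without the 2 farthest before centring). Cish and Socs1 had r = -0.525 (permutation p = 0.211, adjusted 0.281) and rho = -0.224 (permutation p = 0.585, adjusted 0.585), and r = -0.0431 without the 2 farthest. None of the 4 relations passed. The Cish and Socs1 value rested on Atm-/- replicates 2 and 3, and the Il7r and Cish value on Rag2c/c p53-/- replicates 2 and 4.

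The genes whose centred log2 values most resembled those of a member over the 13 libraries are given as a description, with no test. For Il7r they were Ino80 (r = 0.981), a chromatin remodelling ATPase, Madd (r = 0.970) and Zfp316 (r = 0.961). For Cish they were Mef2a (r = 0.973), a transcription factor, Zmiz1 (r = 0.960) and Stac2 (r = 0.957), the last with a mean of only 27.5. For Socs1 they were Cyth2 (r = 0.978), the nuclear noncoding RNA Malat1 (r = 0.976) and Pias4 (r = 0.940). All of these share library and depth with the member.

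Among other receptor chains of cytokine signalling, Il9r rose in both lymphoma groups. Of 10 other receptor chains, 1 rose and 5 fell in Atm-/- lymphomas (median log2 fold change -1.24), and 1 rose and 4 fell in the Rag2c/c p53-/- group (median -1.25). Of all tested genes, 29.5% changed and 17% fell in Atm-/- and 23.6% changed and 13.9% fell in Rag2c/c p53-/- lymphomas, with the medians close to 0 given above. These shares are the background of each list that follows. Il9r, the IL-9 receptor chain that pairs with the gamma chain, was listed at 224, 188 and 279 in WT thymus, at 3377, 1466, 1790, 3243 and 2526 in Atm-/- and at 1506, 946, 1702, 869 and 2314 in Rag2c/c p53-/- lymphomas. It rose 10.3-fold (log2 fold change 3.37, SE 0.34, limma adjusted p = 1.2e-05) and 6.02-fold (2.59, SE 0.34, adjusted p = 0.00013), with no overlap with the thymuses. Il6ra, the IL-6 binding chain, fell 4.56-fold and 5.58-fold. Il21r, which also pairs with the gamma chain, fell 2.99-fold in Atm-/- lymphomas and 2.28-fold in Rag2c/c p53-/- lymphomas. Between the lymphoma groups, where 7.84% of tested genes changed, 1 of the 10 passed: Ifngr1, an interferon gamma receptor chain, was 4.0-fold lower in Atm-/- lymphomas (adjusted p = 0.00038).

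Of 7 other JAK and STAT genes, 5 fell in Atm-/- (median log2 fold change -1.21) and 4 in Rag2c/c p53-/- lymphomas (median -1.23), and none rose, beside 17% and 13.9% of tested genes that fell. Stat4, used by IL-12, was listed at 448 to 642 in WT thymus, 8 to 34 in Atm-/- and 19 to 274 in Rag2c/c p53-/- lymphomas. It fell 27.3-fold and 6.98-fold (limma adjusted p = 0.00015 and 0.0066), and it was 3.91-fold lower in Atm-/- than in Rag2c/c p53-/- lymphomas (adjusted p = 0.049). Jak2 fell 3.17-fold and 3.29-fold, and Tyk2 fell 2.4-fold and 2.35-fold.

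Of 12 other inhibitors, 2 rose and 1 fell in Atm-/- lymphomas (median log2 fold change -0.31), and 1 rose and 3 fell in Rag2c/c p53-/- lymphomas (median -0.29), beside 29.5% and 23.6% of tested genes that changed. Socs2, like Cish a STAT5 target, was at 104 to 111 in WT thymus and fell 4.69-fold and 5.71-fold (limma adjusted p = 0.0028 and 0.0017). Socs5 rose 2.95-fold and 2.01-fold. Ptprc, the phosphatase CD45, fell 2.82-fold in Rag2c/c p53-/- lymphomas. Between the lymphoma groups (background 7.84%) 1 of the 12 passed, Socs4, 2.17-fold higher in Atm-/- (adjusted p = 0.032).

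Of 15 genes known to be induced through STAT5 or by IL-7, a list that includes Cish, Socs1 and Socs2, 1 rose and 4 fell in Atm-/- lymphomas (median log2 fold change -0.88), and 1 rose and 5 fell in Rag2c/c p53-/- lymphomas (median -0.68), beside 29.5% and 23.6% of tested genes that changed. Bcl2, which protects cells from death, was at 2911 to 3157 in WT thymus, 39 to 690 in Atm-/- and 98 to 303 in Rag2c/c p53-/- lymphomas. It fell 12.6-fold and 14.2-fold (limma adjusted p = 0.0016 in both). Ccnd2, a cyclin that drives entry into the cell cycle, was at 5717 to 6642, 109 to 1878 and 53 to 274, and fell 8.83-fold and 47.0-fold (adjusted p = 0.0043 and 0.00014). The gene that rose was Myc, named after its values were seen and, like Il7r, on chromosome 15, 3.07-fold and 2.61-fold. Between the lymphoma groups (background 7.84%, with 3.51% higher in Atm-/-) 2 of the 15 passed, both higher in Atm-/- as Il7r was: Ccnd2 5.33-fold (adjusted p = 0.029) and the cytokine gene Osm 2.38-fold (adjusted p = 0.0050).

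Of 8 regulators of Il7r transcription, 1 fell in Atm-/- lymphomas and none changed in Rag2c/c p53-/- lymphomas or between the lymphoma groups in limma (medians -0.60, -0.43 and -0.07), beside 29.5%, 23.6% and 7.84% of tested genes. That gene was Foxo1, which activates Il7r in mature T cells, 2.16-fold lower in Atm-/- lymphomas (adjusted p = 0.012). Foxo1 was at 3263 to 3518 in WT thymus and at 1694, 3528, 1166, 1218 and 1133 in Atm-/- replicates 1 to 5. The groups thus overlapped through Atm-/- replicate 2, the shallowest of its group. Of 8 ligand genes, 5 passed the filter on low values, each at 10 or more in all 3 thymuses and in at most 1 lymphoma, so their calls are not counted here. Il7 itself was listed at 32, 13 and 27 in WT thymus, at 2, 0, 0, 11 and 7 in Atm-/- and at 2, 3, 1, 0 and 2 in Rag2c/c p53-/- lymphomas. The lymphoma values were close to the worth of a few reads, as was WT thymus replicate 2, where 1 read was worth an estimated 3.23. In WT thymus replicates 1 and 3, 1 read was worth an estimated 0.5 and 0.595, so their values rest on more reads. Thymic epithelium makes IL-7, and its markers Foxn1 and Psmb11 were at 19 to 34 and 36 to 122 in WT thymus, 0 to 2 and 0 in Atm-/-, and 1 to 7 and 0 to 1 in Rag2c/c p53-/- lymphomas. Other markers of the list did not follow them in the Rag2c/c p53-/- group: Epcam was at 221 to 283, 39 to 85 and 22 to 875 and Ccl25 at 260 to 296, 124 to 225 and 227 to 429, and the list summed to 725 to 1058, 189 to 609 and 287 to 1320, in the same order of groups. The part of epithelium in the Il7 values was not tested.

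**Figure D5:**
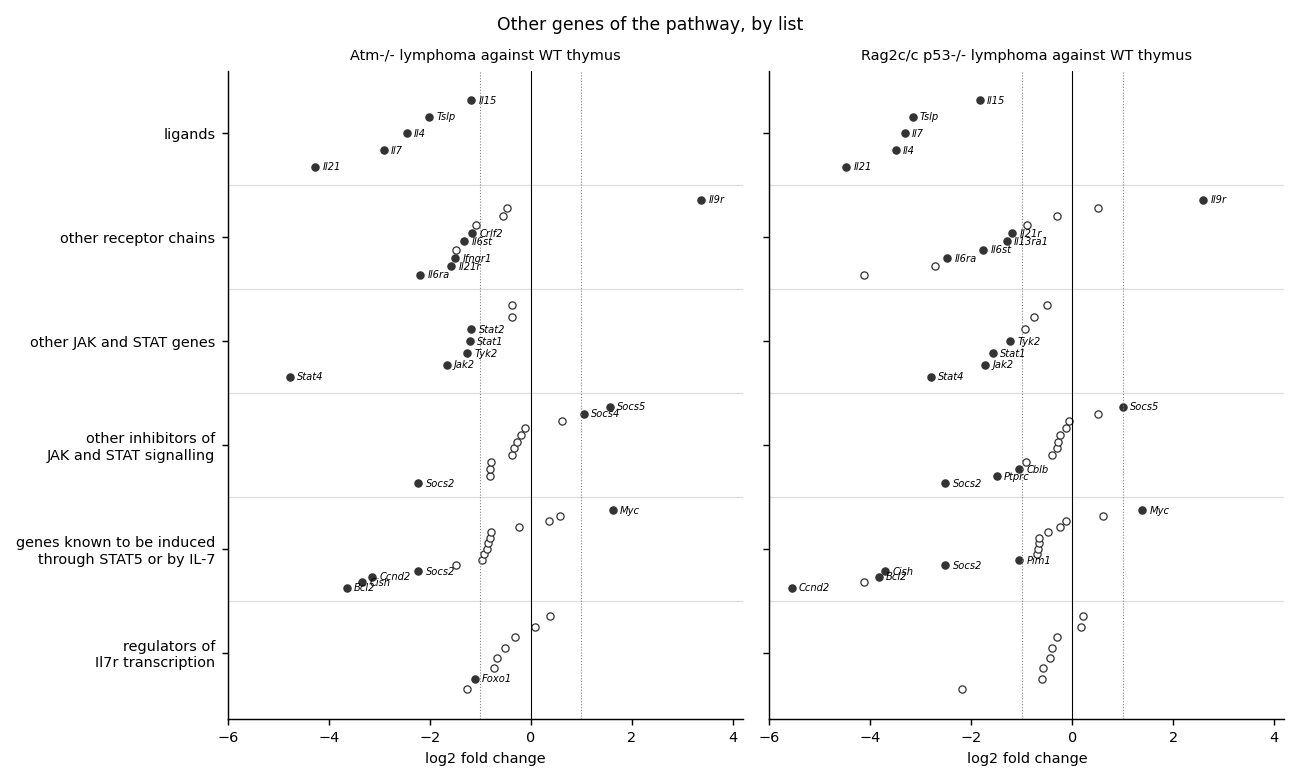
Log2 fold changes from limma of the tested genes of 6 lists in Atm-/- (left) and Rag2c/c p53-/- lymphomas (right) against WT thymus, 1 point per gene, filled and named where changed, with dotted lines at -1 and 1. Il9r, Socs5 and Myc are filled to the right in both panels, and Stat4, Bcl2, Ccnd2 and Cish lie far to the left. The ligand genes passed the filter on low values through the WT thymuses, so their filled points are not counted as results.

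Markers of thymocyte stage differed widely between the libraries. The 6 markers of double-negative thymocytes (Il2ra, Kit, Ptcra, Erg, Hes1 and Dtx1) summed to 7140 to 7511 in WT thymus, 567 to 47198 in Atm-/- and 2598 to 14102 in Rag2c/c p53-/- lymphomas. These markers did not move together. Erg was at 104 to 123, 0 to 8 and 0 to 6, and Kit at 445 to 555, 9 to 648 and 152 to 1382, in the same order. Atm-/- replicate 2, with the highest sum, held Il2ra at 17248 and Dtx1 at 16369 but Kit at 9 and Erg at 2. Rag2c/c p53-/- replicate 4, which had the lowest Il7r value of all 13 libraries, had the highest double-negative sum of its group. Atm-/- replicate 3, the lowest in Il7r of its group, had the lowest double-negative sum of all. Rag1, which is high in double-positive thymocytes, was at 48182 to 70834 in WT thymus, 2383 to 7116 in Atm-/- and 5620 to 23493 in Rag2c/c p53-/- lymphomas, lower in every lymphoma. S1pr1, which mature thymocytes need to leave the thymus, was at 1286 to 1406, 27 to 226 and 19 to 49, also lower in every lymphoma. Fibroblast markers summed to 175 to 182, 3488 to 15853 and 581 to 1945, and myeloid markers to 3229 to 3478, 5994 to 9925 and 3620 to 7475. Endothelial markers summed to 3615 to 3724, 3188 to 6192 and 1823 to 5255. Most of that sum was Pecam1, at 3529 to 3660, 3036 to 6173 and 1809 to 5252. Of the 6 endothelial markers, 3, 3 and 1 had a mean of at least 10, in the same order of groups. The part of stage or of these cells in the members' values was not tested.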

How the data were processed

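RNA from 13 samples was sequenced as stranded mRNA libraries (TruSeq). Per the labels, the authors used bcl2fastq 1.8.3, STAR 2.4.0g1, Picard and DESeq2 1.6.3 with mm10 (GRCm38). The study's methods, which describe the WT thymuses and other tumors, give Ensembl release 78, removal of duplicates and uniquely mapped reads (mapping quality 255); they are taken to hold for these lymphomas, and the strand setting of the counting is not given in the sources used here. The authors scaled each library's counts by its size factor and deposited them rounded, so the values are a score rather than raw counts, as read from the values themselves. Columns with the authors' own group means, fold changes, log2 fold changes, p-values and dispersions were not used.

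The model was limma 3.58.1 (R 4.3.3) on log2(value + 1), with all 13 libraries, 3 group means, a trended variance and robust moderation, for genes at 10 or more in at least 3 libraries. Fold changes are on that scale and understate changes of low genes. Replicates of the lymphomas are numbered in accession order, and p-values measure the spread between mice. Depth was estimated from the frequency of low values, approximately for the deepest libraries. Exon lengths and overlaps came from GENCODE vM21, promoters from RefSeq, and correlations used two-sided tests with 100000 permutations within the groups (scipy 1.17.1). The model was tested on simulated data. All 10 members are named. In each of 6 other lists the changed genes with the largest fold changes (at most 4) could be named, together with genes needed to read a member. The sums of 3 marker lists are not reported here. Members and lists were chosen with earlier results of these data known. Alternatives covered scaling, filter, pseudocount, threshold, groups in the model and leaving out libraries.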

Additional observations from a re-analysis of the deposited data

Results flagged for a closer look

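Of 20 groups of 5 lymphomas tested, 2 for each member, 5 held a library far from the rest, where chance gives about 1 in 20. The gap to the nearest library, as a share of the range, passed 0.71 for Stat5a at 3626, Stat5b at 5033 and Socs1 at 3608 normalized counts in Atm-/- replicate 2, the shallowest of its group. It passed also for Jak3 at 2477 in Rag2c/c p53-/- replicate 3 and for Stat5a at 6042 in Rag2c/c p53-/- replicate 5. The share for Stat5b, 0.711, was barely past the limit.

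The effect on Il7r against the same WT thymuses differed between the lymphoma groups by 2.52 on the log2 scale (limma adjusted p = 0.011), with all 5 Atm-/- lymphomas above all 5 Rag2c/c p53-/- lymphomas.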

How the results depend on the processing

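Under alternatives, 475 log2 values of members kept direction and side of the threshold, 8 gained a call and 17 turned sign. The calls of Il2rb, Il4ra and Cish against WT thymus and of Il7r between the lymphomas held in all of them. With no fold threshold, 5 members passed in Atm-/- lymphomas against WT thymus in place of 3, and 5884 genes in place of 3750 passed in Rag2c/c p53-/- lymphomas. Leaving out each library in turn gave 3 to 4 changed members in Atm-/- and always 3 in Rag2c/c p53-/- lymphomas against WT thymus, and 1 to 2 between the lymphomas, with 2 only without Rag2c/c p53-/- replicate 1. Leaving out the shallowest library of each group, an alternative added after the data were seen, gave 4, 3 and 1. Choosing the 2 farthest lymphomas of each relation after centring, also added after the data were seen, left all 4 relations short of the threshold.

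The sign turned only for differences near 0. Stat5a against WT thymus became 0.020 without Atm-/- replicate 2 (range over libraries left out -0.082 to 0.020), and 0.062 (Atm-/-) and 0.018 (Rag2c/c p53-/-) without the shallowest libraries. Ranges in this paragraph are over libraries left out one at a time. Between the lymphomas, Stat5a was -0.010 with recomputed size factors, -0.011 with equal totals, -0.023, -0.002, -0.026 and -0.007 without Atm-/- replicates 1, 3, 4 and 5, and -0.030, -0.027 and -0.044 without Rag2c/c p53-/- replicates 1, 2 and 4 (highest 0.117). Il2rg was -0.025 without Atm-/- replicate 2 (highest 0.338), Jak1 was 0.034 without Rag2c/c p53-/- replicate 3 (lowest -0.310), and Il4ra was 0.057 without Atm-/- replicate 5 and 0.012 and 0.126 without Rag2c/c p53-/- replicates 1 and 3 (lowest -0.360, and -0.585 without the shallowest libraries). The cause was not tested. No paired analysis was possible because each lymphoma came from a different mouse. Depth limits Cish in the shallowest lymphomas, at about 3 and 4 reads.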
